A study of Mus musculus with 10 samples.

Results

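Expression of 8 genes of hepatic glycogen synthesis and breakdown was examined in liver RNA of 10 mice profiled on Illumina mouse bead arrays. They were chosen by name: *Gys2*, *Gyg*, *Gbe1*, *Ugp2*, *Pygl*, *Ppp1r3b*, *Ppp1r3c* and *Pgm1*. The array held probes for 19057 named genes, and 14 of its 45281 probes were annotated to these 8. Of the 14 probes, 12 were tested, so that each of the 8 genes had at least 1 tested probe. All mice carried the 129S1/SvImJ;C57Bl/6J background, kept as an inbred strain. The WD SW group, 5 mice, received a high-fat Western Diet and drinking water with fructose and glucose for 8 weeks, and the CD group, 5 mice, received chow and plain water. Males of 8 to 12 weeks of age were put on the diets, total RNA came from liver tissue, and each array was a separate sample. No source states whether mice shared a cage or litter, so p-values reflect the spread among these arrays alone.

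Glycogen is the branched glucose store of the hepatocyte, built up after meals and broken down in fasting. Glucose 6-phosphate is converted to glucose 1-phosphate by phosphoglucomutase (*Pgm1*) and this in turn to UDP-glucose by UDP-glucose pyrophosphorylase (*Ugp2*). Glycogenin (*Gyg*) starts the chain, the liver glycogen synthase (*Gys2*) extends it and the branching enzyme (*Gbe1*) adds branch points. The liver phosphorylase (*Pygl*) releases glucose 1-phosphate again. *Ppp1r3b* and *Ppp1r3c* encode regulatory subunits that bring protein phosphatase 1 (PP1) to glycogen, where it activates the synthase and inactivates the phosphorylase.

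Transcripts of the liver glycogen synthase and of the enzyme that forms its substrate were higher in WD SW livers, also with array brightness as a covariate. Those of the phosphorylase were higher too, but did not pass the test with that covariate (0.31 ± 0.25 for its brighter and 0.70 ± 0.36 for its dimmer probe). By the brightest tested probe of each gene, *Gys2* (5.01-fold, against CD signals near the background), *Ugp2* (2.95-fold), *Ppp1r3b* (1.91-fold), *Gyg* (1.63-fold) and *Pygl* (1.62-fold) rose. Of these, *Gyg* was near the background in CD livers too. The other 3 genes, *Gbe1*, *Pgm1* and *Ppp1r3c*, did not pass the test. In liver tissue, fewer cells of a type and less RNA per cell cannot be told apart. Values are normalized log2 signals, differences are WD SW minus CD with their SE, and adjusted p-values come from limma with Benjamini-Hochberg adjustment over 17368 tested probes. The number of arrays limits their precision. A probe counted as called at an adjusted p under 0.05. Of the 12 tested glycogen gene probes, 8 were called higher and 0 lower, against 17.2% called higher and 31.2% called in either direction among all tested probes. In the deposited normalized values 8 were called higher too, against 15.9% of all tested probes. Of the 8 genes, 5 were called higher and 0 lower, against 14.5% and 15.4% of 10187 genes. All arrays of a diet lay above all arrays of the other for 5 of the 12 probes, each with WD SW higher, against 11.5% of all tested probes in that direction and 9.38% in the opposite one. Both *Gys2* probes and the *Gyg* probe were above background on only 2 or 3 CD arrays and met the detection rule through the WD SW arrays, which favours probes that are high there. With detection required on all 10 arrays, 4 of 8 tested glycogen gene probes and 3 of 6 genes were called higher, against 1698 of 10844 probes. The median difference was 0.70 over the 8 genes and -0.05 over all tested genes.

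The brightness of the arrays moved with the diets. The 95th percentile of the signals ranged over 870 to 1023 in WD SW and 403 to 921 in CD. Only CD replicate 1 reached the WD SW range, and CD replicates 2 to 5 lay at 548, 466, 403 and 453. Each member is therefore also given with brightness as a covariate, and against CD replicate 1 alone, a single array whose spread was then taken from the WD SW group. With the covariate, 3 of the 12 probes were called higher and 1 lower, against 2.78% higher and 4.74% in either direction among all tested probes. Against CD replicate 1 alone, 4 were called higher and 0 lower, against 5.44% higher and 9.25% in either direction. The 3 probes called higher with the covariate were both *Gys2* probes and the *Ugp2* probe, and the 4 against CD replicate 1 were these and the dimmer *Pygl* probe. The probe called lower with the covariate was that of *Ppp1r3c*.

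**Figure D1:**
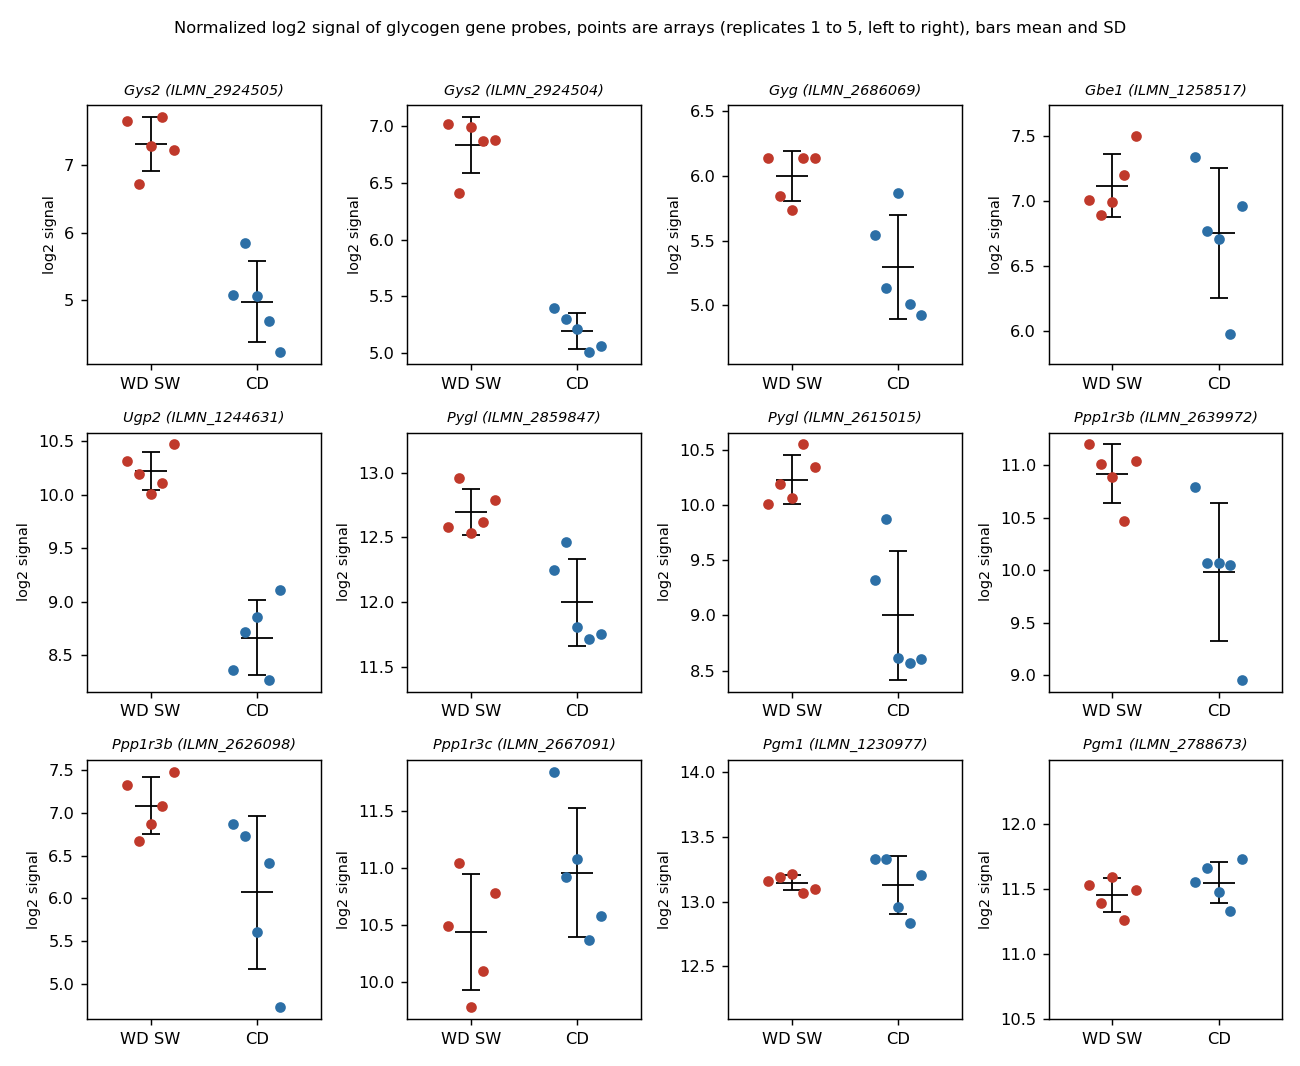
Normalized log2 signal (vertical axes, each panel with its own range) of the 12 tested probes on the 5 WD SW arrays (red, left) and the 5 CD arrays (blue, right), with mean and SD as black bars. The diets are apart for both *Gys2* probes, *Ugp2* and both *Pygl* probes, and they overlap for the other 7 probes.

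**Figure D2:**
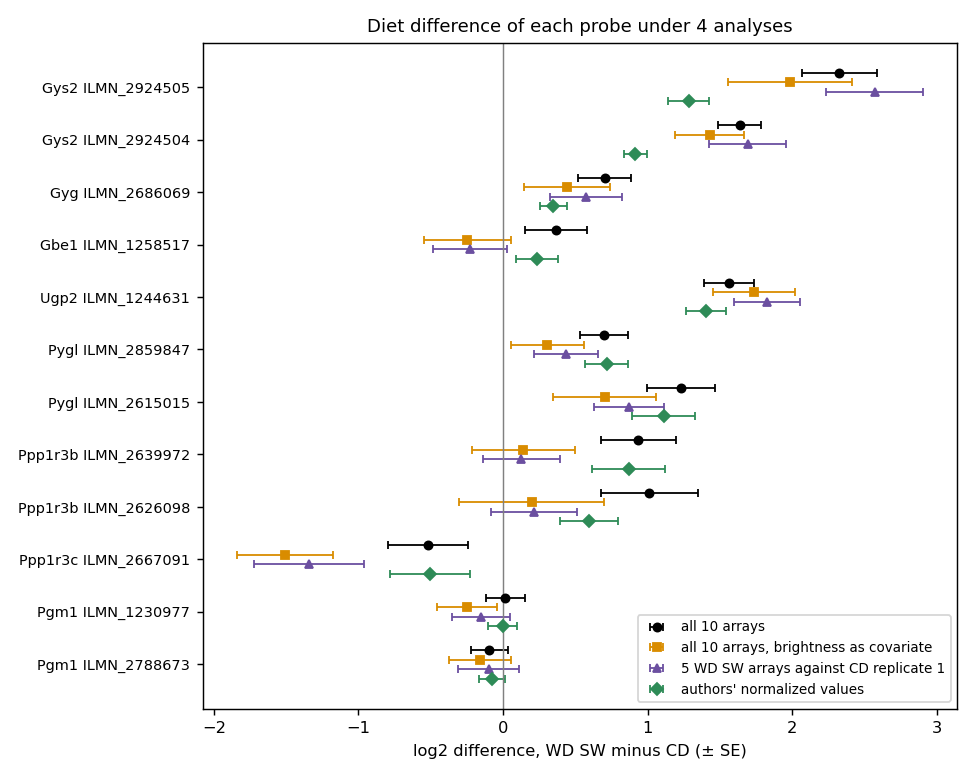
Log2 difference between WD SW and CD (horizontal axis, ± SE) of the 12 tested probes (rows) in 4 analyses. The *Gys2* and *Ugp2* points stay well above 0 in all 4, the *Ppp1r3b* points lie at 0.13 to 0.22 with the covariate or against CD replicate 1, and the *Ppp1r3c* points move to -1.51 and -1.34.

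RefSeq promoter windows (GRCm38.p6) were at hand for 6 of the 8 genes; *Gys2* and *Ppp1r3b* had no entry. As examples, 4 windows are shown as the 250 bases before an annotated start: those of *Ugp2* and *Pygl*, which rose, and that of *Ppp1r3c*, which did not follow them. Capitals mark a match to CACGTG, the E-box core bound by clock transcription factors.
*Ugp2*, upstream start (chr11:21371268-21371517, minus strand): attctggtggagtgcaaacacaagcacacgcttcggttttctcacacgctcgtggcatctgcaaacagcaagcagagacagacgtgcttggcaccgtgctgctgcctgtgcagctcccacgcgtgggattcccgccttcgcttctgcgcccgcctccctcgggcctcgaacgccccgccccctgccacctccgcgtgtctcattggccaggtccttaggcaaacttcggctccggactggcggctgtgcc
*Ugp2*, downstream start (chr11:21370630-21370879, minus strand): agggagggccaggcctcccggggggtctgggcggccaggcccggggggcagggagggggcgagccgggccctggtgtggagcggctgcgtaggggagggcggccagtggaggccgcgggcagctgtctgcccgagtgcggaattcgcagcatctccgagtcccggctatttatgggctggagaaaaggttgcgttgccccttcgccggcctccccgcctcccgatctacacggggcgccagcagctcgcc
*Pygl* (chr12:70227684-70227933, minus strand): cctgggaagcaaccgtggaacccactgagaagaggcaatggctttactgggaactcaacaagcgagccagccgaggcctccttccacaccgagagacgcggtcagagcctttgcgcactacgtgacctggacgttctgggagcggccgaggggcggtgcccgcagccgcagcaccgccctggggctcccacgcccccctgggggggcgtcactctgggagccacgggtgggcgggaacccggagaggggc
*Ppp1r3c* (chr19:36736605-36736854, minus strand): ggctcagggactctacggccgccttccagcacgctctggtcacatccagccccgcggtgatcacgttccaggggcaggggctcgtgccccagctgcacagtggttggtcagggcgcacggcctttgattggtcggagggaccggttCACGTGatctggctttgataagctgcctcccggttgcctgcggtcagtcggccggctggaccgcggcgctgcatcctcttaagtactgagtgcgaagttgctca
On both strands, CACGTG, TGACGTCA (the cAMP response element), TATAAA and the DR1 element of nuclear receptors were searched for. The first pair read the same on either strand, and no motif contains another. The *Ppp1r3c* window held 1 CACGTG, beginning at position -104 from the start, and the 2 *Ugp2* windows and the *Pygl* window held none of the 4 motifs. Of the windows not shown, those of *Gyg*, which rose, and *Gbe1*, which did not pass the test, held none either. That of *Pgm1*, which did not pass, held no CACGTG and 1 TATAAA, beginning at position -108. CACGTG was present in 6.02% of 32851 mouse promoter windows of the same length, TGACGTCA in 1.55%, the DR1 element in 0.0335% and TATAAA in 12.4%. These matches describe letters in a window, and binding was not measured here.

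*Gys2*, the liver isoform of glycogen synthase and the rate-limiting enzyme of glycogen formation, showed the largest difference of the 8 genes after background correction. Its brighter probe (ILMN_2924505) read 7.64, 6.71, 7.27, 7.70 and 7.22 on the WD SW arrays and 5.09, 5.84, 5.06, 4.69 and 4.23 on the CD arrays. Every WD SW array was above every CD array. The probe was above background on all 5 WD SW arrays but on only 2 of the 5 CD arrays. The log2 difference was 2.33 ± 0.26 (adjusted p = 2.58e-05), or 5.01-fold, a size read against CD signals of which 3 of 5 were not above background. The second probe (ILMN_2924504) averaged 6.83 ± 0.25 in WD SW and 5.20 ± 0.16 in CD (SD, n = 5 each), and rose by 1.64 ± 0.15 (adjusted p = 5.56e-06). WD SW replicate 2 was the lowest WD SW array for both probes.

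The *Gys2* increase was present with brightness as a covariate and against the bright CD array alone. That array's unnormalized signal for the brighter probe, 96.7, was close to its background mode of 88.1. With brightness as a covariate the brighter probe stood at 1.99 ± 0.43 (adjusted p = 0.0206) and the second at 1.43 ± 0.24 (adjusted p = 0.00588). Against CD replicate 1 alone they stood at 2.57 ± 0.33 (adjusted p = 0.00288) and 1.69 ± 0.26 (adjusted p = 0.0059). The CD signals lay near the background, and the size of the change depended on how background was treated. For the brighter probe it was 1.29 without background correction and 1.28 ± 0.14 in the deposited normalized values, where that of *Ugp2* was larger (1.40 ± 0.14), and both *Gys2* values were called.

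*Gys2* is a known target of the circadian clock in mouse liver, and clock genes differed between the diets. Of 6 clock genes tested, *Per1*, *Per2* and *Dbp* rose, *Arntl* fell and 2 did not pass, against 14.5% of all tested genes called higher and 15.4% lower. The *Per1* probe was above background on 5 WD SW arrays and 0 CD arrays, so it met the detection rule only through the WD SW arrays. For *Per2*, the other tested probes ranged over -0.35 to 0.97. *Dbp* and *Arntl* were also called with the covariate, and *Per1* and *Per2* were not (adjusted p = 0.147 and 0.0514); against CD replicate 1 alone *Dbp* and *Per2* were called. *Dbp*, a clock output transcription factor, rose by 2.85 ± 0.60 (adjusted p = 0.00255), and *Arntl*, the activator that pairs with CLOCK, fell by 1.72 ± 0.24 (adjusted p = 0.000154). The summed signal of the 6 genes was 1028 to 5316 on the WD SW arrays and 690 to 1469 on the CD arrays. No source gives the hour at which livers were taken, and the part of these genes in the *Gys2* result was not tested.

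*Ugp2*, which makes the UDP-glucose that *Gys2* consumes, rose in WD SW livers in all analyses run. Its single probe (ILMN_1244631) read 10.32, 10.20, 10.01, 10.11 and 10.47 on the WD SW arrays and 8.36, 8.71, 8.86, 8.27 and 9.11 on the CD arrays. Every WD SW array was at least at 10.01, and no CD array was above 9.11. The log2 difference was 1.56 ± 0.17, a 2.95-fold increase (adjusted p = 2.2e-05). CD replicate 1, the bright CD array, was the second lowest of all 10 arrays. The difference was 1.74 ± 0.28 with the brightness covariate (adjusted p = 0.00548) and 1.82 ± 0.23 against CD replicate 1 alone (adjusted p = 0.0025). The deposited, unnormalized signals did not overlap either, at 1307 to 1909 on the WD SW arrays and 225 to 490 on the CD arrays, of which CD replicate 1 was the highest.

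*Gyg*, glycogenin, was dim. Its tested probe (ILMN_2686069) read 6.14, 5.85, 5.74, 6.14 and 6.14 on the WD SW arrays and 5.54, 5.13, 5.87, 5.01 and 4.93 on the CD arrays. CD replicate 3 lay among the WD SW arrays, and the probe was above background on 2 CD arrays. The difference was 0.70 ± 0.18 (adjusted p = 0.00925), a 1.63-fold increase. It was no longer called with the brightness covariate (0.44 ± 0.30, adjusted p = 0.434) or against CD replicate 1 alone (0.57 ± 0.25, adjusted p = 0.169). The other *Gyg* probe was above background on 4 WD SW arrays and no CD array and was not tested.

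*Gbe1*, the branching enzyme, did not pass the test. Its tested probe (ILMN_1258517) read 7.01, 6.89, 6.99, 7.20 and 7.51 on the WD SW arrays and 7.34, 6.77, 6.71, 5.98 and 6.96 on the CD arrays. CD replicate 1 was higher than 4 of the 5 WD SW arrays, and the groups overlapped. The difference was 0.37 ± 0.21 (adjusted p = 0.206), with a 95% interval of -0.09 to 0.82, and it was -0.25 ± 0.30 with the covariate. The tested probe is annotated to a cDNA clone record. The probe annotated to the RefSeq transcript was above background on only 1 of the 10 arrays.

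*Pgm1*, the phosphoglucomutase that links glucose 6-phosphate to glycogen, was bright and did not pass the test. Its brighter probe (ILMN_1230977) read 13.16, 13.19, 13.22, 13.07 and 13.10 on the WD SW arrays and 13.33, 13.33, 12.96, 12.83 and 13.21 on the CD arrays. The WD SW values lay within the range of the CD values. The difference was 0.02 ± 0.13 (adjusted p = 0.94), with a 95% interval of -0.27 to 0.30, and that of the second probe was -0.10 ± 0.13 with an interval of -0.37 to 0.18. A change of 2-fold in either direction, 1 on the log2 scale, lay outside both intervals. In older mouse annotations this gene was called *Pgm2*; the probes were matched by gene identifier. The probe of the gene now called *Pgm2* was above background on 1 array and was not tested.

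*Pygl*, the phosphorylase that breaks liver glycogen down, rose by both of its probes. The brighter probe (ILMN_2859847) read 12.58, 12.96, 12.53, 12.62 and 12.79 on the WD SW arrays and 12.24, 12.47, 11.81, 11.71 and 11.76 on the CD arrays. The lowest WD SW array was only slightly above CD replicate 2. The difference was 0.70 ± 0.17 (adjusted p = 0.00579), a 1.62-fold increase. The second probe (ILMN_2615015) read 10.01, 10.19, 10.06, 10.55 and 10.34 on the WD SW arrays and 9.32, 9.88, 8.62, 8.57 and 8.61 on the CD arrays, again without overlap. Its difference was 1.23 ± 0.23 (adjusted p = 0.00126), a 2.35-fold increase. Among the CD arrays, replicates 1 and 2 were the highest for both probes, and they were also the 2 brightest CD arrays.

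The *Pygl* increase was smaller in the analyses that allowed for brightness. With the covariate the 2 probes stood at 0.31 ± 0.25 (adjusted p = 0.531) and 0.70 ± 0.36 (adjusted p = 0.277). Against CD replicate 1 alone they stood at 0.44 ± 0.22 (adjusted p = 0.233) and 0.87 ± 0.24 (adjusted p = 0.0476). With median scaling over the tested probes in place of quantile normalization, the brighter probe stood at 0.44 and missed the threshold (adjusted p = 0.0965).

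*Ppp1r3b*, the PP1 glycogen-targeting subunit that predominates in liver, rose by both probes against all CD arrays but not against the bright one. Its brighter probe (ILMN_2639972) read 11.20, 11.01, 10.89, 10.46 and 11.04 on the WD SW arrays and 10.79, 10.07, 10.07, 10.05 and 8.95 on the CD arrays. CD replicate 1 lay within the WD SW range and CD replicate 5 was far below the other CD arrays. The difference was 0.94 ± 0.26 (adjusted p = 0.0134), a 1.91-fold increase. The second probe (ILMN_2626098) averaged 7.08 ± 0.33 in WD SW and 6.07 ± 0.89 in CD (SD, n = 5 each), a difference of 1.01 ± 0.33 (adjusted p = 0.0311). With the covariate the probes stood at 0.14 ± 0.35 and 0.20 ± 0.50, and against CD replicate 1 alone at 0.13 ± 0.27 and 0.22 ± 0.30, none of them called.

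*Ppp1r3c*, the subunit also known as protein targeting to glycogen, differed from *Ppp1r3b* in its pattern. Its probe (ILMN_2667091) read 10.49, 11.04, 9.78, 10.10 and 10.78 on the WD SW arrays and 11.84, 10.92, 11.08, 10.36 and 10.58 on the CD arrays. The groups overlapped, and CD replicate 1 was the highest of all arrays. The difference was -0.52 ± 0.27 (adjusted p = 0.164), with a 95% interval of -1.10 to 0.06. With brightness as a covariate it was -1.51 ± 0.33 and was called lower (adjusted p = 0.0223), and against CD replicate 1 alone it was -1.34 ± 0.38 (adjusted p = 0.0509). With median scaling over all probes it was 0.09.

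**Figure D3:**
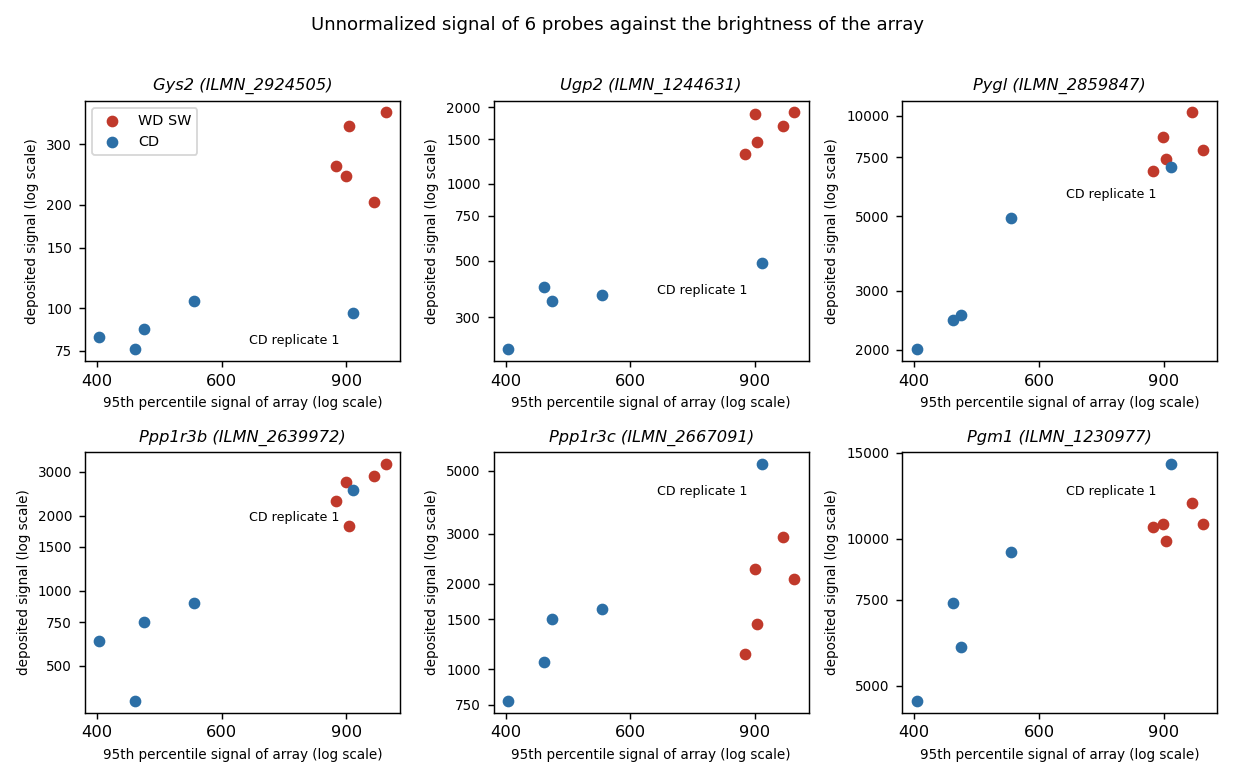
Deposited, unnormalized signal of the brightest probe of 6 genes (vertical axes, log scale) against the 95th percentile signal of the array (horizontal axes, log scale), one point per array, WD SW in red and CD in blue. CD replicate 1, as bright as the WD SW arrays, lies far below them for *Gys2* (96.7) and *Ugp2* (490), within their range for *Pygl* and *Ppp1r3b*, and above them for *Ppp1r3c* and *Pgm1*.

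A factor that multiplies all signals of an array cancels in the difference of 2 log2 signals of that array, but only in part after background correction and quantile normalization and for probes near the background. With this limit, 2 pairs of genes were compared within arrays, and which gene of a pair is more abundant cannot be read from the values. The difference *Gys2* minus *Pygl* was -5.39 ± 0.55 in WD SW and -7.02 ± 0.36 in CD (SD, n = 5 each), a shift of 1.63. The difference *Ppp1r3b* minus *Ppp1r3c* was 0.48 ± 0.44 in WD SW and -0.97 ± 0.47 in CD, a shift of 1.45. In both pairs every WD SW array lay above every CD array. Permuting the diet labels exactly, two-sided, gave p = 0.00794 for each pair (adjusted p = 0.00794 over the 2 pairs), the smallest p that 5 against 5 arrays allow. Against CD replicate 1 alone the shifts were 2.13 and 1.47. The *Gys2* minus *Pygl* shift includes 3 CD arrays on which *Gys2* was not above background, and it was 0.57 with the deposited normalized values (exact permutation, adjusted p = 0.0397) and 0.60 without background correction (adjusted p = 0.0317).

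The median spread of the members was larger over the CD than over the WD SW arrays. The median SD of the 8 genes was 0.22 in WD SW and 0.45 in CD, against 0.20 and 0.29 over all tested genes. The spread was lowest for *Pgm1* in WD SW (SD 0.06) and highest for the second *Ppp1r3b* probe in CD (SD 0.89). The second *Gys2* probe went the other way (SD 0.25 in WD SW and 0.16 in CD). The CD arrays also differed more in brightness (403 to 921, against 870 to 1023 in WD SW), and *Gys2* and *Gyg* were near the background there. The part of brightness and background in this spread was not tested.

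The genes whose profile over the 10 arrays was most like that of a called member are given as a description, since Pearson's r over all arrays includes the diet difference itself and shared array properties. For *Gys2* they were *Capn7* (r = 0.987), *Xdh*, xanthine dehydrogenase (r = 0.980), and *Adh5*, an alcohol dehydrogenase (r = 0.979). For *Ugp2* they were *Mtch2*, a mitochondrial outer membrane protein (r = 0.977), *Elovl5*, a fatty acid elongase (r = 0.974), and *Gal3st1*, a sulfotransferase (r = 0.972). For *Pygl* they were *Blvrb*, *Olig1* and *Clstn3* (r = 0.960 to 0.965), for *Ppp1r3b* *Lamb2*, *Polr2h* and *Tcp1* (r = 0.958 to 0.974), and for *Gyg* *Uba3*, *Gadd45gip1* and *Dguok* (r = 0.954 to 0.973).

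The wider machinery of glycogen metabolism was followed in 55 further genes in 9 lists, of which 49 had a probe and 33 were tested. Of the 33, 8 rose and 2 fell, which is 30.3% against 29.9% of all tested genes, with a median difference of -0.0031. This share was near the background. With the brightness covariate 1 gene of the 33 was called higher, and against CD replicate 1 alone 2 were.

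**Figure D4:**
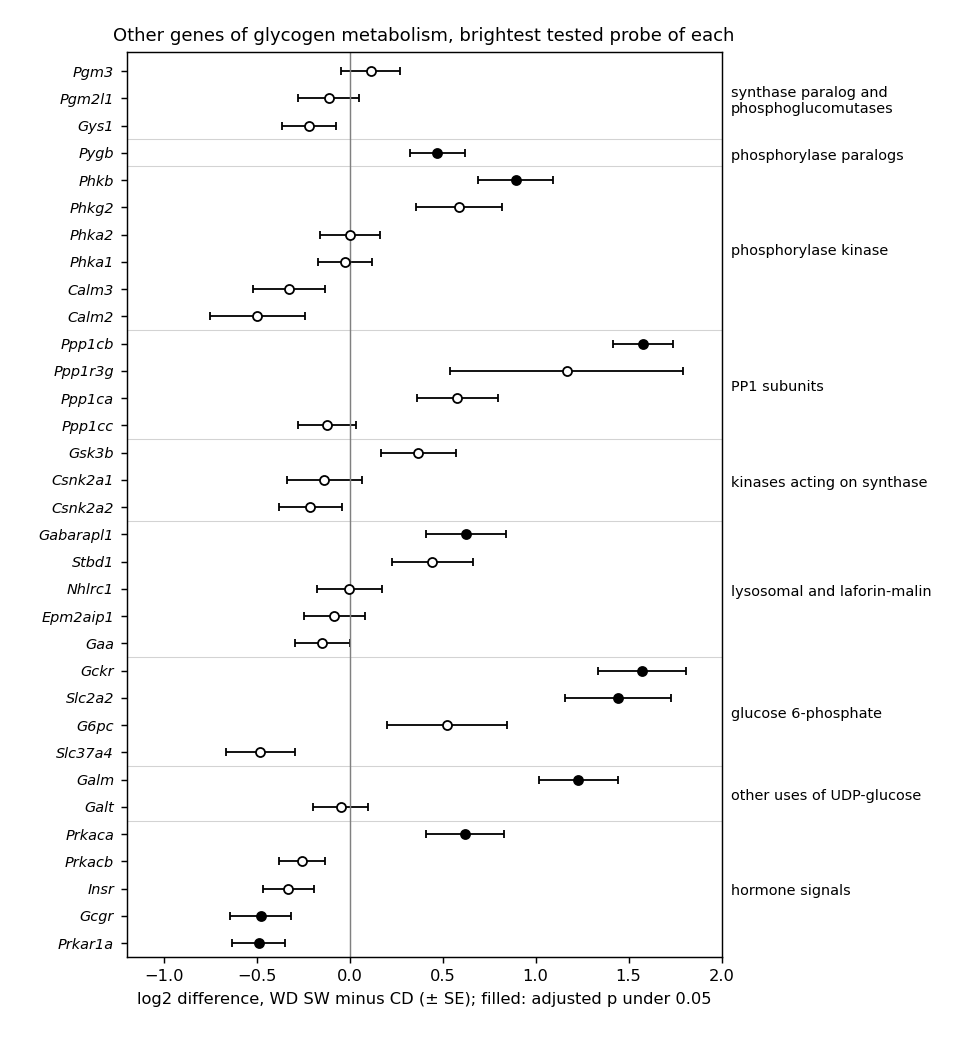
Log2 difference between WD SW and CD (horizontal axis, ± SE) of the 33 tested genes of glycogen metabolism outside the 8 members (rows), grouped by role, with filled points for an adjusted p under 0.05. *Ppp1cb*, *Gckr* and *Slc2a2* lie farthest to the right, and *Gcgr* and *Prkar1a* are the filled points left of 0.

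Among the PP1 subunits, 1 of 4 tested genes rose. *Ppp1cb*, a catalytic subunit of the phosphatase that *Ppp1r3b* and *Ppp1r3c* bring to glycogen, read 7.53, 7.62, 7.35, 7.26 and 7.37 on the WD SW arrays and 6.03, 6.10, 5.91, 5.27 and 5.93 on the CD arrays. The groups did not overlap, and the difference was 1.58 ± 0.16 (adjusted p = 1.56e-05), with 1.36 for its other tested probe. It was also called with the covariate (1.23, adjusted p = 0.0156) and against CD replicate 1 alone (adjusted p = 0.00487). The catalytic subunits *Ppp1ca* and *Ppp1cc* did not pass (0.58 ± 0.22 and -0.12 ± 0.16), although the other *Ppp1ca* probes ranged over 0.10 to 2.12. For *Ppp1r3g*, another targeting subunit, WD SW replicate 3 read 9.29 and the other WD SW arrays 5.15 to 5.89, against 4.47 to 6.05 on the CD arrays, and it did not pass (adjusted p = 0.171). *Ppp1r3a*, *Ppp1r3d*, *Ppp1r3e* and *Ppp1r3f* were not tested.

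Of 6 tested genes in the phosphorylase kinase list, 1 rose. *Phkb*, the beta subunit of the kinase that activates phosphorylase, rose by 0.89 ± 0.20 (adjusted p = 0.004), with all WD SW arrays above all CD arrays, and missed the threshold with the covariate (0.71, adjusted p = 0.239) and against CD replicate 1 alone (0.96, adjusted p = 0.136). The liver alpha subunit *Phka2* stood at 0.0002 ± 0.16, with 0.42 and 0.52 for its other probes, and the catalytic subunit *Phkg2* at 0.59 ± 0.23 (adjusted p = 0.0651). *Pygb*, the brain isoform of phosphorylase, was dim and rose by 0.47 ± 0.15 (adjusted p = 0.0264). It was above background on 5 WD SW arrays and 1 CD array, so it met the detection rule through the WD SW arrays. The call was lost in the deposited normalized values (0.16, adjusted p = 0.0622) and without background correction (0.17, adjusted p = 0.0551). With median scaling over the tested probes *Pygb* stood at -0.13. *Pygm*, the muscle isoform, was not tested.

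At the entry and exit of glucose 6-phosphate, 2 of 4 tested genes rose. *Gckr*, the regulator of glucokinase, rose by 1.57 ± 0.24 (adjusted p = 0.00024), and *Slc2a2*, the hepatocyte glucose transporter, by 1.44 ± 0.28 (adjusted p = 0.00173), with 1.91 and 2.40 for its other tested probes. Neither was called with the covariate (adjusted p = 0.150 and 0.233), and against CD replicate 1 alone *Slc2a2* was called (1.35, adjusted p = 0.0101) and *Gckr* was not (0.83, adjusted p = 0.124). *G6pc*, the glucose 6-phosphatase that releases free glucose, did not pass (0.52 ± 0.32). *Galm*, which interconverts the anomers of galactose and glucose, was the called gene of the 2 tested in the list of other uses of UDP-glucose, at 1.23 ± 0.21 (adjusted p = 0.000674). It missed the threshold with the covariate (1.02, adjusted p = 0.110) and against CD replicate 1 alone (1.09, adjusted p = 0.057).

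Among genes of hormone signals, 1 of 5 rose and 2 fell. *Gcgr*, the glucagon receptor, fell by 0.48 ± 0.16 (adjusted p = 0.0378), and *Prkar1a*, a regulatory subunit of protein kinase A, fell by 0.49 ± 0.14 (adjusted p = 0.0181), although both were above 0 with median scaling over all probes (0.29 and 0.17). *Prkaca*, a catalytic subunit of the same kinase, rose by 0.62 ± 0.21 (adjusted p = 0.036), with 0.32 for its other probe, and stood at -0.01 with the covariate. None of the 3 was called with the covariate or against CD replicate 1 alone. With the number in the sample titles as a random block, *Gcgr* (adjusted p = 0.0852) and *Prkaca* (adjusted p = 0.0649) lost their call, as did *Gabarapl1* (adjusted p = 0.0663) and *Pygb* (adjusted p = 0.0538). Of 5 tested genes of the lysosomal and laforin-malin list, *Gabarapl1*, an autophagy adaptor, rose (0.63 ± 0.21, adjusted p = 0.0384) and stood at 0.24 with the covariate. None of the 3 tested kinases acting on the synthase passed, the brightest being *Csnk2a2* (-0.21 ± 0.17), and neither did any of the 3 tested genes among the synthase paralog and other phosphoglucomutases, the brightest being *Pgm3* (0.11 ± 0.16).

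Markers of other cell types were examined beside these values. Among all tested genes, 14.5% were called higher and 15.4% lower. Of 7 hepatocyte markers, all were above background on all 10 arrays, 0 rose and 3 (*Alb*, *Tat* and *Cyp2f2*) fell. The *Alb* and *Tat* probes averaged 7.06 and 5.28 in WD SW and 8.99 and 5.78 in CD, far below *Ttr* (14.73 and 14.76). The summed normalized signal of all 7, on the linear scale, was 96260 to 103609 in WD SW and 83982 to 101863 in CD. Most of this sum came from *Ttr*, *Apoa1* and *Cyp2e1*. Quantile normalization holds such bright values nearly alike across arrays, so the sum cannot show whether hepatocyte RNA differed. Of 3 erythroid genes 2 (*Hba-a1* and *Hbb-bt*) rose, with sums of 10414 to 13438 in WD SW and 5034 to 8957 in CD. The other tested *Hbb-bt* probes ranged over -0.77 to 1.56. Of 5 tested Kupffer cell and macrophage genes 1, *Gpnmb*, rose by its brightest probe, with sums of 1850 to 4404 in WD SW and 1104.5 to 2645 in CD. The brightest *Lyz2* probe stood at 0.91 ± 0.34 (adjusted p = 0.052). Other tested probes differed by 2.50 for *Lyz2*, 0.38 for *Adgre1* and -0.34 for *Clec4f*. The *Gpnmb* probe was above background on 5 WD SW arrays and 2 CD arrays. With the covariate *Gpnmb*, *Adgre1* and *Lyz2* were called higher, and against CD replicate 1 alone *Vsig4* stood at 1.43. The covariate also left *Hbb-bt* (1.78) and the endothelial gene *Lyve1* (2.2) called higher and *Alb* (-1.37) called lower. *Hba-a1*, *Tat*, *Cyp2f2*, *Dcn*, *Col1a1* and the endothelial gene *Kdr* were not called with it. Of 5 stellate cell genes 2 (*Dcn* and *Col1a1*) rose, with sums of 6071 to 7572 in WD SW and 4808 to 5950 in CD. The other tested *Dcn* probes ranged over -0.43 to 1.79, and *Col1a1* was above background on 1 CD array. Of 5 sinusoidal endothelial genes 1 rose and 1 fell, with sums of 3088 to 4422 in WD SW and 2565 to 4474 in CD. Of 4 cholangiocyte markers, *Krt19* and *Epcam* were above background on 0 arrays and *Krt7* on 3, and the 1 tested was *Sox9*. Its brighter probe fell by 2.11 ± 0.23 (adjusted p = 2.09e-05), with signals of 271 to 484 in WD SW and 918 to 2147 in CD. That probe was also called lower with the covariate (-1.19, adjusted p = 0.0151) and stood at -1.22 against CD replicate 1 alone. The other tested *Sox9* probe differed by only -0.35. The skeletal muscle genes *Ckm*, *Acta1*, *Myh4* and *Pygm* were above background on at most 2 arrays and the adipocyte genes *Adipoq*, *Plin1* and *Lep* on at most 4. CD replicates 3 and 4 also stood apart in the acute phase genes, *Saa1* reading 9.31 to 11.26 in WD SW, and in CD 13.21 and 13.99 on replicates 3 and 4 and 6.42 to 7.69 on the rest. Without these 2 arrays, 7 of the 12 glycogen gene probes were called higher, against 2468 of all 17368 tested probes. The second *Ppp1r3b* probe was not called (1.03, adjusted p = 0.0852). The part of the other markers in the glycogen gene results was not tested.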

How the data were processed

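Total RNA of 10 livers was labelled with Cy5 and hybridised to Illumina mouse bead arrays. The authors deposited a table of unnormalized probe intensity values (linear, background not subtracted), which was the starting point, and a table of normalized intensity values (linear, method not given in the sources used here), used after log2 transformation as an alternative. Bead summary and software are not given in the sources used here. Diet was taken from the labels. Nothing in the labels pairs the arrays. The highest correlation of log2 signals within a diet was 0.988, so no array was counted as a duplicate.

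Signals were corrected by normexp (offset 16, fitted to all probes), quantile normalized and log2 transformed (limma 3.58.1, R 4.3.3). Quantile normalization hides a shift of most genes, and low signals are compressed. A probe was above background where it exceeded the mode of the array's log2 signals (kernel bandwidth 0.02) at a one-sided normal p of 0.05, with the spread taken from the signals below the mode, and was tested if so on at least 5 of 10 arrays. Probes were named by gene identifier (34885 had 1 symbol, 18 several and 10378 none). A gene was represented by its brightest tested probe. limma was fitted to all 17368 tested probes without covariates, the paper's main text stating no model. The computation was tested on simulated data. Of 3 planned within-array pairs, 1 is not reported here. The members, lists, tests and alternatives were chosen with earlier results of these data known. All members were named, with every called gene of a list up to 3 in each direction or its brightest gene; a few others were chosen after their values were seen.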

Additional observations from a re-analysis of the deposited data

Results flagged for a closer look

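Of 50 sets of 5 arrays examined for a value that stood apart (gap to the nearest array over the whole range above 0.71, Dixon's limit), 4 were picked out, and chance alone picks about 1 in 20. In the second *Gys2* probe, WD SW replicate 2 was the lowest WD SW array at 6.41, with the others at 6.87 to 7.02. CD replicate 1 was the brightest CD array, with a 95th percentile signal of 921 against 403 to 548 on the others. *Prkaca* read 9.06 on WD SW replicate 4 and 8.41 to 8.51 on the other WD SW arrays. *Ppp1cb* read 5.27 on CD replicate 4 and 5.91 to 6.10 on the other CD arrays.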

How the results depend on the processing

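Both *Gys2* probes and *Ugp2* kept their direction and call under every alternative that gave them a value. Both within-array pairs did so in the alternatives in which their test was run. The pairs were not run with the brightness covariate or with the number in the sample titles as a random block. Against CD replicate 1 alone only their shifts were taken, without a test. *Gys2* in CD livers was near the background, which limits the precision of its fold change, and the brightness covariate is largely shared with the diets (only 1 CD array is bright). The consequences of the brightness difference beyond these alternatives were not tested.

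With the brightness covariate, 483 of all tested probes were called higher and 340 lower, 3 glycogen gene probes higher and 1 lower, 2 glycogen genes higher and 1 lower, and 1 other pathway gene higher and 0 lower. *Gyg* stood at 0.44, *Gbe1* at -0.25, the *Pygl* probes at 0.31 and 0.70, the *Ppp1r3b* probes at 0.14 and 0.20, *Ppp1r3c* at -1.51, the brighter *Pgm1* probe at -0.25 and *Prkaca* at -0.0094. Against CD replicate 1 alone, 944 probes were called higher and 663 lower, 4 glycogen gene probes and 2 genes higher, and 2 other pathway genes higher and 0 lower. There *Gyg* stood at 0.57, *Gbe1* at -0.23, the brighter *Pygl* probe at 0.44, the *Ppp1r3b* probes at 0.13 and 0.22, the brighter *Pgm1* probe at -0.15 and *Prkaca* at -0.016.

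With median scaling over the tested probes, which moved the median of all tested probes to -0.24, 2247 probes were called higher and 5954 lower (27.4% of calls higher), 4 other pathway genes were lower, and the brighter *Pygl* probe stood at 0.44, the brighter *Pgm1* probe at -0.36 and *Pygb* at -0.13. With median scaling over all probes, chosen after seeing the data, that median was 0.46, 8195 probes were called higher and 229 lower (97.3% of calls higher), and 18 other pathway genes were higher and 0 lower. *Gbe1* then stood at 1.13 (adjusted p = 0.0074), *Ppp1r3c* at 0.094, the second *Pgm1* probe at 0.45, *Gcgr* at 0.29 and *Prkar1a* at 0.17. Relative to that shift *Gys2* and *Ugp2* were still above it, at 2.77 and 2.28.

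Without background correction, with a normexp offset of 50 and with the deposited normalized values, 4 other pathway genes were called lower in each, and with the last of these the brighter *Pgm1* probe stood at -0.0036. Without a detection filter 1 other pathway gene was lower. With detection required on all 10 arrays, 10844 probes were tested, of which 1698 were called higher and 2369 lower, with 4 glycogen gene probes and 3 genes higher. This rule left out both *Gys2* probes, the *Gyg* probe and the second *Ppp1r3b* probe, which were not above background on every CD array. With 1 probe per gene, 1449 probes were higher and 1547 lower, with 5 glycogen gene probes; with probes averaged per gene, 1617 were higher and 1384 lower, and *Pgm1* stood at -0.040. With an intensity trend and robust fit the second *Ppp1r3b* probe stood at 1.01 (adjusted p = 0.0523), and without CD replicates 3 and 4 at 1.03 (adjusted p = 0.0852), where 5 other pathway genes were higher and 0 lower and the brighter *Pgm1* probe stood at -0.13. The title number as a random block (consensus correlation 0.207) left 5 other pathway genes higher and 1 lower, with *Gcgr*, *Prkaca*, *Gabarapl1* and *Pygb* no longer called; no source says what that number marks. For the other changes the cause was not tested.

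Leaving out 1 array at a time, 2436 to 3336 probes were called higher and 1864 to 2709 lower, with 7 to 8 glycogen gene probes and 5 genes higher, and 5 to 10 other pathway genes higher and 1 to 2 lower. The second *Ppp1r3b* probe ranged over 0.69 to 1.20 and lost its call without WD SW replicate 1, 4 or 5 or CD replicate 3 or 5. The brighter *Pgm1* probe ranged over -0.054 to 0.066. *Gabarapl1* lost its call in 7 of 10 such fits, *Gcgr* and *Prkaca* in 6 and *Pygb* in 5. No paired analysis was possible because the replicate numbers were given in accession order and do not pair the arrays.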
